A study of Mus musculus with 6 samples.

Results

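The genes described here encode the T cell receptor alpha constant region (Trac), the CD3 signalling chains (Cd3d, Cd3e, Cd3g and Cd247), the CD4 and CD8 coreceptors (Cd4, Cd8a and Cd8b1), the CD4-lineage factor ThPOK (Zbtb7b) and the T cell surface receptor CD5 (Cd5). They were chosen as a list of names, through the Entrez gene number of each row, and all 10 had a row among the 25206 rows of the table. They were measured in group 2 innate lymphoid cell (ILC2) lines from C57BL/6J mice, cultured with IL-33 and IL-2, 10 ng/ml. All cells carried a lentiviral CRISPR construct with GFP. In the 3 control samples it held non-target guides and in the 3 knockout samples guides against CBFβ, and GFP+ cells were sorted 6 days after transduction. The labels give no age of the mice, no count or sequence of the guides and no clone, and leave unsaid whether replicates are separate cultures.

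In T cells the alpha and beta, or gamma and delta, chains of the receptor bind antigen but have no signalling tail of their own, and the CD3 gamma, delta, epsilon and zeta chains carry the signal inward. CD4 and CD8 bind MHC molecules beside the receptor and bring the kinase LCK to it. ILC2s are lymphocytes without a surface antigen receptor, although they share many transcription factors with T cells. RUNX proteins, which need CBFβ for stable DNA binding, act at a silencer that shuts Cd4 off in CD8 T cells, at a silencer of Zbtb7b and at enhancers of the Cd8 genes. The comparison of knockout with control asks how these genes read when CBFβ is targeted in cells that are not T cells.

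Values are log2 expression. The array medians lay between 3.57 and 3.63, and their number limits the precision. The targeted gene, Cbfb, read 8.53, 8.73 and 8.70 in control and 7.88, 7.69 and 7.91 in knockout. It was lower in every knockout array while transcript remained, and a transcript level shows neither the edit nor the protein. Of the ILC2 markers, 10 were measured, and their mean per array was 9.35 to 9.43 in control and 9.37 to 9.46 in knockout. Thy1, listed among them, read only 3.27 to 3.51, and Rora rose from 3.32 to 5.53. Il7r, Icos and Il5 fell (limma, adjusted p under 0.05), and the other 6 ILC2 markers did not pass. Past that threshold were 40% of the 10, beside 9.75% of all rows. Only 1 of the 10 read under the median of all row means, so these shares come from unlike signal levels. The mean of 17 T cell markers was 4.19 to 4.27 and 4.11 to 4.21, and that of 9 NK cell and ILC1 markers 4.79 to 4.97 and 4.39 to 4.59. That of 7 macrophage and dendritic cell markers was 3.49 to 3.68 and 3.25 to 3.41. Of these 7 only Itgax fell past the threshold (14.3%, beside 9.75% of all rows), and all 7 differences were negative, from -1.04 to -0.013. The 6 B cell markers gave 2.64 to 2.69 and 2.59 to 2.73, and the 6 mast cell markers 2.29 to 2.39 and 2.17 to 2.48. The T cell markers include all the genes described here except Zbtb7b, so their mean is no separate reading. No marker was at 0, and the values come without detection calls.

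Of the 10 genes, 2 fell in the knockout, Trac and Cd247, none rose, and 8 did not pass the test (limma, adjusted p under 0.05 over all rows). Over all rows 9.75% passed, 5.51% higher and 4.24% lower in the knockout. Without the adjustment 5 of the 10 had a p under 0.05, each with the lower mean in the knockout, where 22.9% of all rows had such a p and 10.9% with the lower mean in the knockout. Control and knockout values were fully apart for 6 of the 10, with the knockout below for Trac, Cd247, Cd8a and Cd8b1 and above for Cd3g and Cd4, where 27.5% of all rows had no overlap. The median difference, knockout minus control, was -0.11 for the 10 genes and -0.0067 for all rows. For 5 of them, Cd3d, Cd3e, Cd4, Cd8b1 and Cd5, both group means lay under 3.6, the median of all row means. That value is no detection limit, but array signals near background compress differences, so a change in these 5 genes can be understated. The cells were measured in bulk, where fewer cells with a transcript and less of it per cell cannot be told apart.

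**Figure D1:**
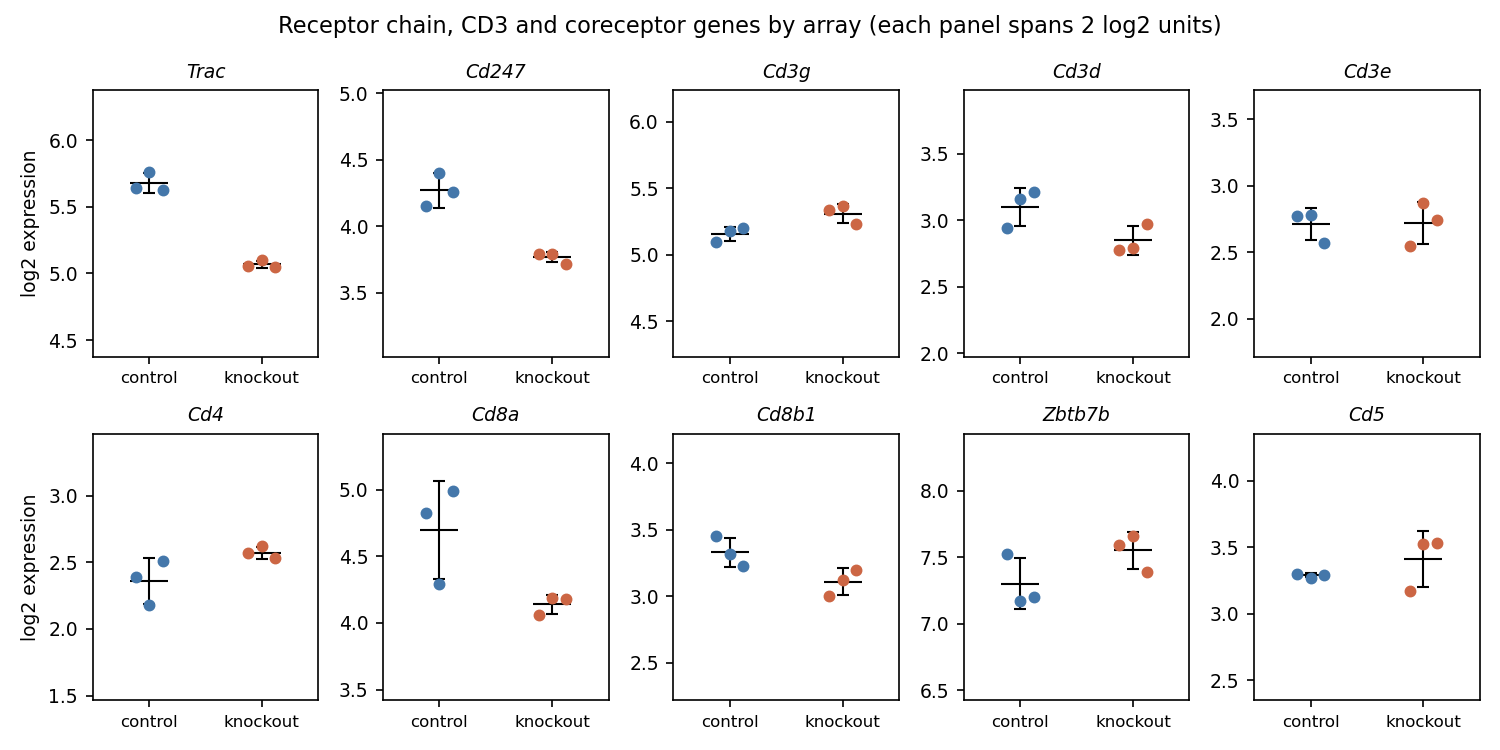
Log2 expression of the 10 genes in each array (dots; control blue, knockout orange), with the mean and SD of 3 arrays per group (black lines); each panel spans 2 log2 units and has its own range. The knockout dots of Trac and Cd247 lie clear of the control dots, those of Cd8a lie below 3 control values that are spread from 4.29 to 4.99, and those of Cd3e lie among the control values.

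Trac (Entrez gene 100101484) encodes the constant region of the receptor's alpha chain. It read 5.64, 5.76 and 5.63 in control and 5.06, 5.10 and 5.05 in knockout. All 3 knockout values lay below all control values, and the spread within either group was small beside the gap. The mean went from 5.68 ± 0.072 to 5.07 ± 0.026 (SD, n = 3), a difference of -0.61 (standard error 0.0805, limma adjusted p = 0.00324). As a linear signal the knockout stood at 65.7% of control (95% interval 57.8% to 74.7%). The gene passed in each of 13 alternative fits (adjusted p 0.000871 to 0.0182).

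Cd247 (Entrez gene 12503) encodes the zeta chain, which carries most of the receptor's activation motifs and also serves some NK cell receptors. It read 4.15, 4.40 and 4.26 in control and 3.79, 3.79 and 3.72 in knockout, again without overlap. The mean went from 4.27 ± 0.13 to 3.77 ± 0.04 (SD, n = 3), a difference of -0.50 (standard error 0.0914, limma adjusted p = 0.0122), or 70.5% of the control signal (95% interval 61% to 81.6%). Without control replicate 2, the highest of its control values, Cd247 had an adjusted p of 0.0501, and it passed in the other 12 alternative fits (adjusted p 0.00397 to 0.0501 over all 13).

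The other CD3 chains did not pass the test. Cd3g (Entrez gene 12502), the gamma chain gene, read 5.10, 5.18 and 5.20 in control and 5.34, 5.37 and 5.23 in knockout, with every knockout value just above the control values. Its difference was 0.15 (95% interval -0.037 to 0.34, limma adjusted p = 0.332). Cd3d (Entrez gene 12500), the delta chain gene, read 2.94, 3.16 and 3.21 in control and 2.78, 2.79 and 2.97 in knockout, and the highest knockout value passed the lowest control value. Its difference was -0.26 (interval -0.50 to -0.018, adjusted p = 0.185). Cd3e (Entrez gene 12501), the epsilon chain gene on whose protein the receptor complex is built, read 2.77, 2.78 and 2.57 in control and 2.55, 2.87 and 2.74 in knockout. These groups lay on top of each other, with a difference of 0.013 (interval -0.24 to 0.27, adjusted p = 0.966) that turned negative without control replicate 3 (-0.055) or without knockout replicate 2 (-0.062). The interval of Cd247, -0.71 to -0.29, has no point in common with that of Cd3g or Cd3e, but the difference between chains was not tested.

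**Figure D2:**
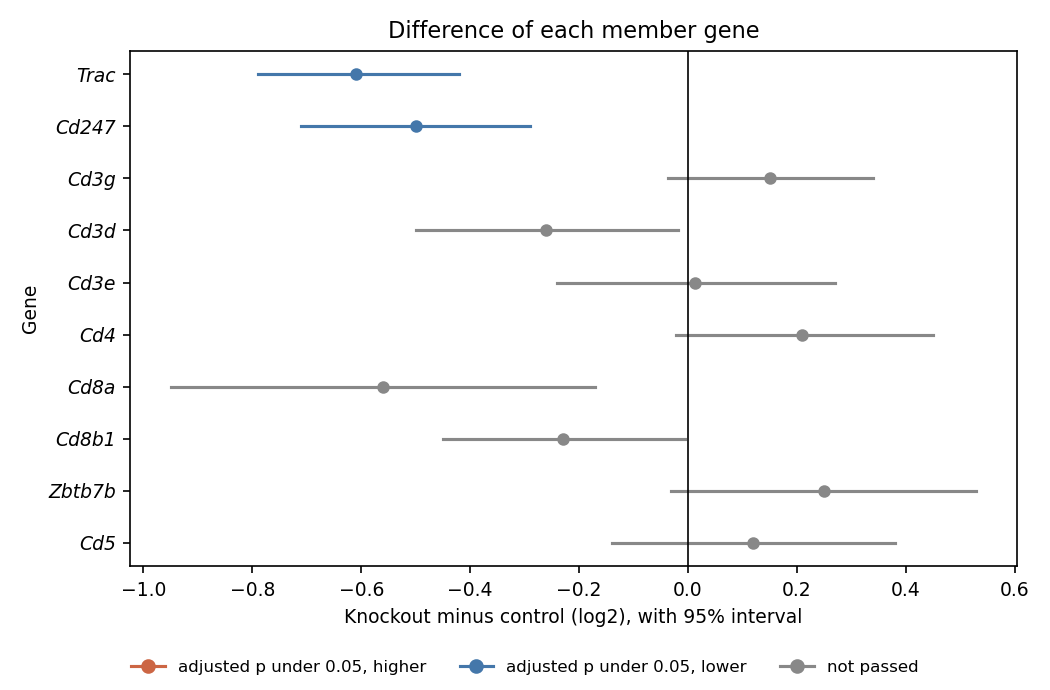
Difference between knockout and control on the log2 scale for each of the 10 genes (dot) with its 95% interval from the limma fit (line); blue marks an adjusted p under 0.05 with the knockout lower, and grey the genes that did not pass. Trac at -0.61 and Cd247 at -0.50 are blue, while Cd8a at -0.56 has an interval from -0.95 to -0.17 and is grey. The intervals are per gene without adjustment, while the colours follow the p adjusted over all rows.

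Among the coreceptors, Cd8a (Entrez gene 12525), whose product forms CD8 alone or with the beta chain, read 4.83, 4.29 and 4.99 in control and 4.06, 4.19 and 4.18 in knockout. The knockout values were close together and below each control value, and control replicate 2 lay nearest to them. The difference was -0.56 with a standard error of 0.169, the widest error of the 10 genes, and it did not pass (limma adjusted p = 0.0822). Without control replicate 2 it was -0.77 (adjusted p = 0.0096), and it also passed among the rows above the median level (0.0403) and with a trended and robust prior (0.0475), 3 of 13 alternatives in all (adjusted p 0.0096 to 0.211). Cd8b1 (Entrez gene 12526), whose beta chain pairs with the Cd8a product on CD8 T cells, read 3.45, 3.32 and 3.23 in control and 3.0, 3.12 and 3.20 in knockout. Every knockout value was lower, by a mean difference of -0.23 (interval -0.45 to -0.0061, adjusted p = 0.205).

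Cd4 (Entrez gene 12504), the coreceptor gene of helper T cells, read 2.39, 2.18 and 2.51 in control and 2.57, 2.62 and 2.53 in knockout. The knockout values lay just above the highest control value. The difference of 0.21 did not pass (95% interval -0.022 to 0.45, limma adjusted p = 0.266), nor did it in any of 12 alternative fits (adjusted p 0.183 to 0.581). The upper end of this interval corresponds to 136% of the control signal. The difference of Cd4 was positive and those of Cd8a and Cd8b1 negative in every fit in which they had a row, and in the comparison of all rows and all 6 arrays none of the 3 passed the threshold, although Cd8a did in the alternatives above.

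Zbtb7b (Entrez gene 22724) encodes ThPOK, the zinc finger factor that commits thymocytes to the CD4 lineage and opposes RUNX3 there. It read 7.52, 7.17 and 7.20 in control and 7.59, 7.66 and 7.39 in knockout, and control replicate 1 lay above knockout replicate 3. The difference was 0.25 (95% interval -0.031 to 0.53, limma adjusted p = 0.277), without a pass in any of 13 alternatives (adjusted p 0.107 to 0.541). Cd5 (Entrez gene 12507), a receptor that dampens antigen receptor signals, read 3.30, 3.27 and 3.29 in control and 3.17, 3.52 and 3.53 in knockout. The knockout arrays fell on both sides of the tightly grouped controls, and the difference was 0.12 (interval -0.14 to 0.38, adjusted p = 0.61).

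Promoter windows were searched for the RUNX core motif because the list holds known RUNX targets. The motif was spelled TGTGGT or TGCGGT and sought on both strands, in windows of 250 bases before to 50 after a start site in RefSeq (GRCm38.p6). Windows were held for 7 of the 10 genes, 8 windows in all, and 3 of the 8 had a match, beside 22.4% of the 32851 windows in the table. The window of Cd8a had its match 44 bases into the transcript. The 250 bases before the start are shown for Cd247, the gene with a window that fell, and for the windows of Zbtb7b and Cd5 that held a match there. Capitals mark the motif, which begins 89 bases before the start for Zbtb7b on the gene's own strand, and 133 bases before it for Cd5 on the opposite strand. Windows lie at chr1:165788431-165788680 on the plus strand (Cd247), chr3:89387672-89387921 on the minus strand (Zbtb7b, the inner of its 2 starts) and chr19:10738975-10739224 on the minus strand (Cd5).
Cd247: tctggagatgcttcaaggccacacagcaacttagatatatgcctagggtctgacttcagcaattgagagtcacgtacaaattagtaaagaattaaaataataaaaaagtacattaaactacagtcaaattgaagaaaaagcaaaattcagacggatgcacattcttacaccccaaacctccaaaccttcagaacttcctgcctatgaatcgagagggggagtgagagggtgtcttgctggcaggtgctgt
Zbtb7b: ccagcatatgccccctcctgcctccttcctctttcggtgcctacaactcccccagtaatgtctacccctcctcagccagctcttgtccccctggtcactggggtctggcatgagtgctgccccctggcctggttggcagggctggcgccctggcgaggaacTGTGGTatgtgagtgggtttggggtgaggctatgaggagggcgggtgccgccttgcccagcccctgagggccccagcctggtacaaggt
Cd5: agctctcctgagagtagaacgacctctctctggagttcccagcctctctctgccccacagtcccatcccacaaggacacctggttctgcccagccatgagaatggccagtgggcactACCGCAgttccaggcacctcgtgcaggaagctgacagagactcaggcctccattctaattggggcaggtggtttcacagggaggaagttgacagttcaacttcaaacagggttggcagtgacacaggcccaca
A match is a run of letters and no sign of binding, and a window without one says nothing about RUNX proteins at that gene.

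A wider list of antigen receptor chains and their partners held 14 measured genes besides the members. Of these 4 fell, none rose and 10 did not pass by limma, which puts 28.6% past the threshold, beside 9.75% of all rows. On average 5 of the 14 read under 3.6, the median of all row means. An unadjusted limma p under 0.05 was found for 5 of the 14, beside 22.9% of all rows. The 4 that fell were all constant region genes of the gamma chain. The list's median difference was -0.12, beside -0.0067 for all rows. Trgc1 read 11.03, 10.89 and 10.92 in control and 10.32, 10.40 and 10.46 in knockout, a fall to 68.1% of the control signal (limma adjusted p = 0.00614). Trgc4 read 11.26, 11.19 and 11.17 in control and 10.52, 10.64 and 10.76 in knockout, or 67.5% (adjusted p = 0.00739). For both, the lowest control array was well above the highest knockout array. Trgc2 went from 8.67 ± 0.20 to 7.81 ± 0.092 (SD, n = 3; adjusted p = 0.00339), and Trgc3 from 8.04 ± 0.11 to 7.10 ± 0.21 (adjusted p = 0.00289). All 4 passed in each of 13 alternative fits. The gamma constant genes are close relatives, and the values alone do not separate their transcripts.

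Constant genes of the beta chain did not follow. Trbc1 read 4.26, 4.68 and 4.80 in control and 4.70, 4.99 and 4.48 in knockout, and Trbc2 6.15, 6.11 and 5.92 against 6.65, 6.37 and 5.99, with overlap in both. Their differences were 0.14 (95% interval -0.25 to 0.54) and 0.28 (interval -0.095 to 0.65), with limma adjusted p of 0.705 and 0.375, and that of Trbc1 was -0.017 without control replicate 1. Trbc1 and Trbc2 are near-identical genes whose signals on an array can mix. Fcer1g, the Fc receptor gamma chain that can stand in for the zeta chain in NK receptors, read 4.07 ± 0.27 and 3.65 ± 0.11 (SD, n = 3) without overlap and did not pass (adjusted p = 0.113). The other adaptor chains Tyrobp (difference 0.027) and Hcst (0.03) and the pre-T cell receptor gene Ptcra (0.077) had intervals that spanned 0, and each changed sign in at least 1 alternative fit. The recombination genes Rag1 (2.32 and 2.13 in control and knockout), Rag2 (2.0 and 1.92) and Dntt (1.87 and 1.97) read under 3.6 in both groups. Of the NK cell and ILC1 markers, 4 of 9 also fell (Nkg7, Klrk1, Prf1 and Gzmb). Prf1 missed the threshold without control replicate 2 (limma adjusted p = 0.0655) or control replicate 3 (0.0569), and Gzmb without control replicate 2 (0.0503). The other 5, Ncr1, Klrb1c, Eomes, Tbx21 and Ifng, did not pass. Differences were positive for 2 of the 9, and 6 of the 9 read under 3.6 on average. Of the T cell markers, which include every member except Zbtb7b, 2 of 17 fell (Trac and Cd247) and Zap70 rose. Past the threshold were 44.4% of the NK cell and ILC1 markers and 17.6% of the T cell markers, beside 9.75% of all rows. The part of other cells in the falls was not tested.

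**Figure D3:**
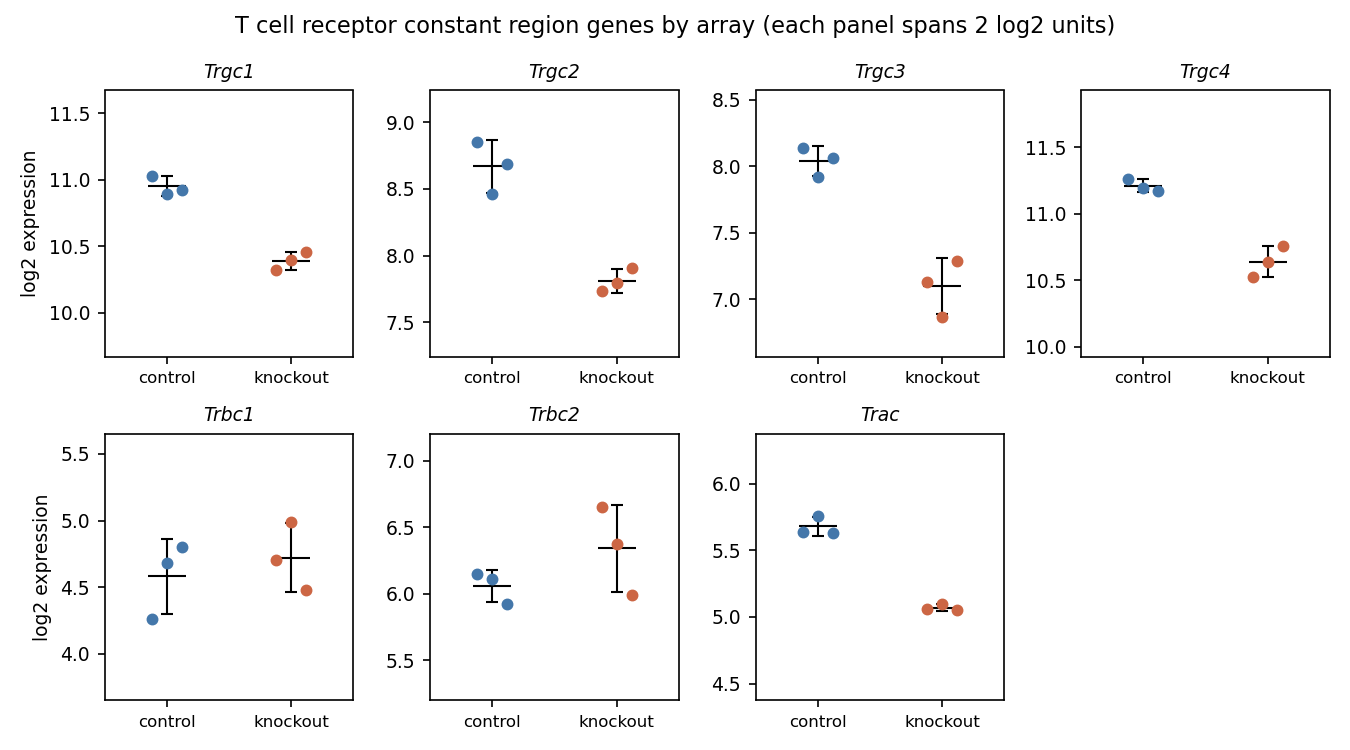
Log2 expression of the 7 measured constant region genes of T cell receptor chains in each array (dots; control blue, knockout orange) with the mean and SD of 3 arrays per group; each panel spans 2 log2 units around its own level. The 4 gamma genes and Trac have all knockout dots below all control dots, and Trbc1 and Trbc2 do not.

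Regulators of the CD4 and CD8 genes moved in both directions. Besides Zbtb7b, 29 were measured, of which 4 rose, 4 fell and 21 did not pass, with a median difference of 0.0067. Past the threshold were 27.6% of the 29, beside 9.75% of all rows. On average only 4 of the 29 read under 3.6, the median of all row means, so these shares come from unlike signal levels. A fit of only the rows above that median called 1953 higher and 1564 lower, where the fit of all rows called 1389 and 1068. The excess over rows of like signal was not tested. The 4 that fell include Cbfb, the gene targeted by the guides. Runx1, which represses Cd4 in early thymocytes, rose 2.42-fold from 6.78 ± 0.22 to 8.05 ± 0.18 (SD, n = 3; limma adjusted p = 0.00121). Runx3, the RUNX protein of CD8 T cells, read 9.25, 8.98 and 8.95 in control and 9.29, 9.27 and 9.35 in knockout. Its groups did not overlap, but the difference of 0.24 did not pass (interval 0.01 to 0.48, adjusted p = 0.198). Cbfb fell to 56.4% of its control signal (adjusted p = 0.00205). Bcl11b, a factor that T cells and ILC2s both need, rose 2.2-fold from 5.95 ± 0.068 to 7.09 ± 0.15 (adjusted p = 0.000549).

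Patz1, which encodes the factor MAZR that binds the Cd8 locus and Zbtb7b silencer, read 5.98, 5.80 and 5.49 in control and 6.52, 6.30 and 6.34 in knockout, and rose by 0.63 (limma adjusted p = 0.0227). Ets1, a factor active at T cell receptor enhancers, read 9.21, 9.27 and 9.29 in control and 8.47, 8.58 and 8.52 in knockout. It fell by 0.73 with an SD of 0.042 and 0.055 in the groups (adjusted p = 0.00129). Lef1, an HMG box factor of thymocytes, fell by 0.44 (adjusted p = 0.0128), and Chd4, a chromatin remodeller that acts on Cd4, fell by 0.36 (adjusted p = 0.0484). Socs1, an inhibitor of cytokine signals, rose by 0.48 (adjusted p = 0.0199). Tox (difference 0.30, adjusted p = 0.12), Myb (0.22, adjusted p = 0.202) and Gata3 (0.10, adjusted p = 0.566) did not pass. When 1 array was left out, Chd4 missed the threshold in all 6 fits (adjusted p 0.0593 to 0.143), Patz1 in 5 (0.0217 to 0.0731 over the 6), passing without control replicate 1, and Socs1 in 4 (0.0181 to 0.0767), passing without control replicate 1 or knockout replicate 3. Lef1 missed it without knockout replicate 2 (0.0526).

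**Figure D4:**
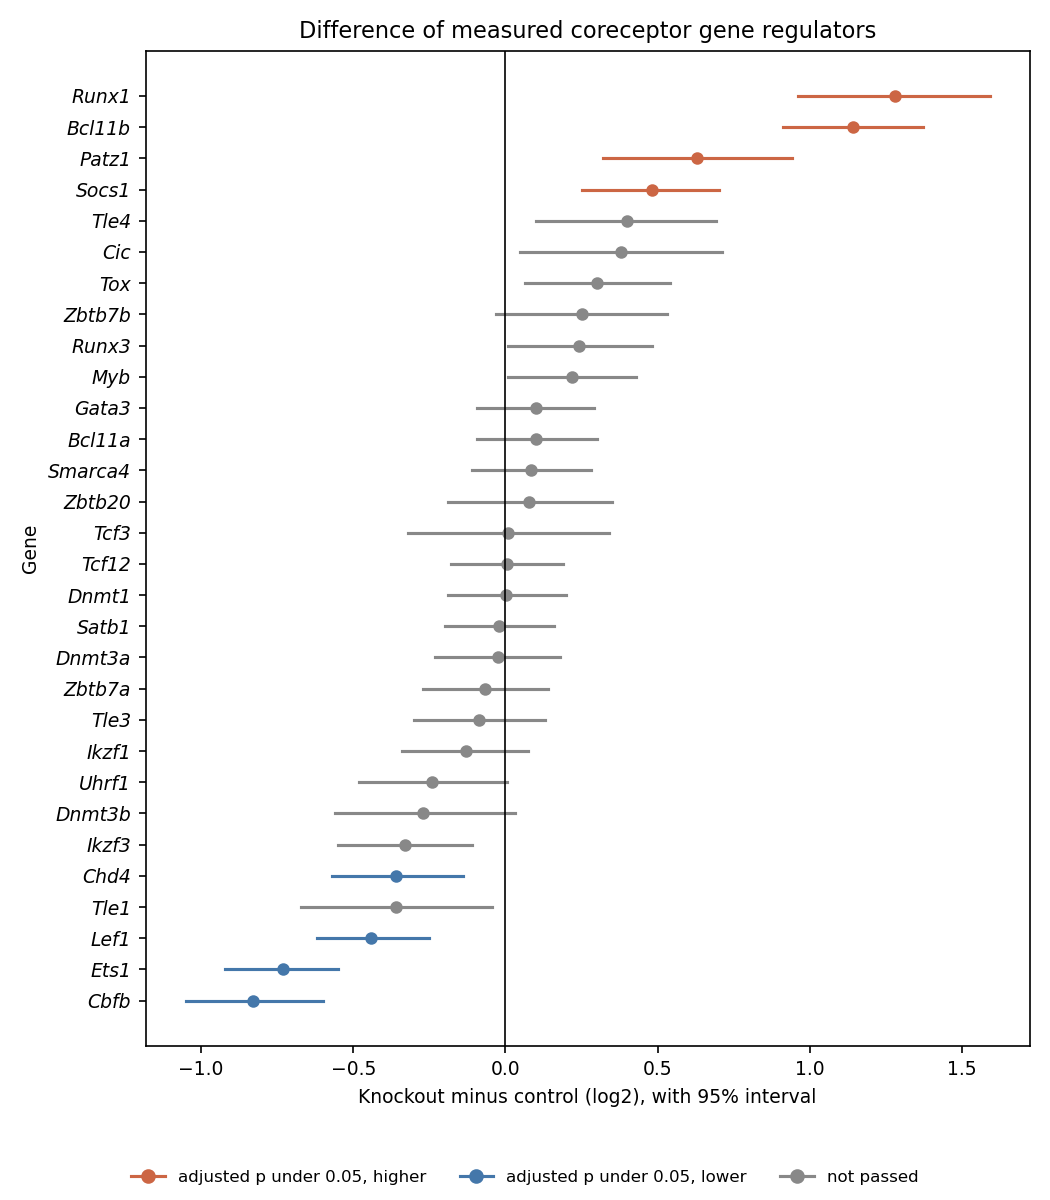
Difference between knockout and control on the log2 scale for 30 measured regulators of the coreceptor genes, Zbtb7b included (dots), with 95% intervals from the limma fit (lines), in order of the difference; orange marks genes past the threshold and higher in the knockout, blue those lower, and grey the rest. Runx1 (1.28) and Bcl11b (1.14) stand at the top and Cbfb (-0.83) and Ets1 (-0.73) at the bottom.

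Surface and signalling partners of the T cell receptor were likewise split. Of 33 measured genes 6 were higher, 6 lower and 21 not past the test (median difference 0.067). Past the threshold were 36.4% of the 33, beside 9.75% of all rows. On average 11 of the 33 read under 3.6, the median of all row means, so these shares too come from unlike signal levels. Those that fell were Cd69, an early activation marker (9.77 ± 0.20 to 9.01 ± 0.08; SD, n = 3), the adaptors Sla (10.37 ± 0.085 to 9.62 ± 0.11) and Sla2 (7.02 ± 0.24 to 6.50 ± 0.12), which lower receptor levels, Skap1, an adaptor of adhesion (8.38 to 7.94), Fyn, a Src family kinase (7.48 to 7.16), and Ubash3a (4.90 to 4.34). Those that rose were Plcg1, the phospholipase downstream of LAT (5.43 ± 0.026 to 5.98 ± 0.12), Csk, which restrains Src kinases (8.20 ± 0.11 to 8.72 ± 0.045), Cd48, a ligand of SLAM family receptors (7.71 to 8.18), the adaptor Nck1 (5.98 to 6.31), Ubash3b (4.39 to 4.79) and Zap70. Zap70, the kinase that docks on phosphorylated CD3 chains, rose by 0.33 (limma adjusted p = 0.0367), while Lat, its adaptor substrate, differed by -0.46 (adjusted p = 0.069). Adjusted p lay between 0.0024 (Sla) and 0.0488 (Fyn) for the 12 genes. With 1 array left out, Fyn, Zap70, Nck1 and Ubash3b lost the call in all 6 fits (adjusted p 0.0628 to 0.137), Ubash3a in all but that without control replicate 1 (0.0218), and Sla2 in all but that without control replicate 3 (0.0367). Skap1 missed it without control replicate 2 (0.0628) or knockout replicate 2 (0.0553), and Cd48 without control replicate 3 (0.0528). Lat passed in 3 of 13 alternatives, none of which left out an array (adjusted p 0.024 to 0.179 over the 13).

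The rows most like Trac and Cd247 over the 6 arrays were found by the root mean square difference of values from each row's own control mean. For Trac these were Pak6, a p21-activated kinase gene (0.0156), Lpxn, which encodes the adhesion adaptor leupaxin (0.0209), and Rictor, an mTORC2 subunit gene (0.0326). For Cd247 they were Gtf2b, the gene of a general transcription factor of RNA polymerase II (0.019), Fndc3a (0.0289) and Tsr1, a ribosome maturation gene (0.0344). Their differences lay between -0.62 and -0.48, and 23184 other named rows were compared in each case. With 3 arrays per group this distance depends mostly on the size of the gap between groups, and 1068 of all rows fell. Whether these genes share a regulator with Trac or Cd247 was not tested.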

How the data were processed

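Biotin-labelled total RNA from 3 control and 3 knockout samples was read on 1-colour arrays, per the labels. The authors deposited log2 expression values, 1 row per Entrez gene, and RMA and limma 3.14.4 are listed, with no role, among the tools in the submitters' processing notes. The log2 scale was read from the values (0.66 to 12.51). If RMA was applied in full, arrays were quantile-normalised, which hides a shift common to most genes. The array's genome build is not given in the sources used here. Of 25206 rows, 23185 had 1 symbol, 0 several and 2021 none. Named rows were matched by Entrez number.

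Values were used as deposited, without a filter. All rows were fitted with limma 3.58.1 (R 4.3.3), knockout minus control, with moderated two-sided tests, 4.1 prior degrees of freedom and Benjamini-Hochberg adjustment over all rows (threshold 0.05). The 95% intervals are per gene and not adjusted. An interval can therefore lie wholly below or above no difference where the adjusted p does not pass. Replicates may be technical, and p-values then measure only the spread between these samples. Every member was named, as were set regulators and any gene past the threshold in 3 lists of related genes; the members, lists and tests were chosen with earlier results of these data known. Genes of the lists without a named row were not analysed here. There were 13 alternative fits and 2 other thresholds. The test was checked on simulated data. Same-numbered arrays did not deviate together from their group means over all rows (correlations 0.025, 0.007 and 0.054), so replicate numbers were not taken as pairs.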

Additional observations from a re-analysis of the deposited data

How the results depend on the processing

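Trac and Cd247 were lower in all 13 alternative fits, and Cd247 missed the threshold in 1 of them. Without control replicate 2 the 2 members called lower were Trac and Cd8a. At an adjusted p under 0.01 only Trac, 1 of the 10 members, was called lower. At an adjusted p under 0.10 there were 3, as there were among the rows above the median level and with a trended and robust prior. Cd8a was the addition each time. No member was called higher by limma in any fit or at either other threshold. Over all rows the fit with the replicate number as a block called 1027 higher and 718 lower. Under the block 8 of the named genes lost their call (Zap70, Chd4, Fyn, Ubash3b, Sla2, Nck1, Traj41 and Traj49), and it changed no call among the members. Leaving out 1 array gave 763 to 1113 rows higher and 544 to 786 lower, a threshold of 0.01 gave 569 and 397, and a trended and robust prior gave 1626 lower. The fit of only the rows above the median level gave 1953 higher and 1564 lower, out of fewer rows. Among named genes, none of them called, the sign changed when 1 array was left out for Cd3e (-0.062 to 0.098), Trgj3 (-0.63 to 0.16), Trbc1 (-0.017 to 0.27), Tyrobp (-0.082 to 0.19), Hcst (-0.033 to 0.072), Ptcra (-0.005 to 0.17), Rag2 (-0.14 to 0.04) and Thy1 (-0.062 to 0.048), and for Hcst also with quantile normalisation repeated (-0.039). Trgv6, at 0, ran from -0.20 to 0.20. Of 881 differences of 69 named genes under these alternatives, 776 kept their side of the threshold without a change of sign, 84 no longer passed, 6 newly passed and 15 changed sign, with Trgv6 counted as unchanged. The table gives no signal over background, which limits what genes reading under 3.6 can show.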

Other observations

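Variable and joining segments of the receptor loci were also on the array, and they were looked at after the values of the gamma constant genes had been seen, so the counts describe these arrays and are no test. Of 15 gamma chain rows 11 fell, none rose and 4 did not pass, with a median difference of -0.69. That puts 73.3% of them past the threshold, beside 9.75% of all rows. Trgj1, a joining segment, read 10.01, 9.68 and 9.58 in control and 8.85, 8.66 and 8.96 in knockout, and Trgj4 10.65 ± 0.13 and 9.95 ± 0.12 (SD, n = 3). Trgj2 had the largest difference, -1.05 (limma adjusted p = 0.0151). It missed the threshold without knockout replicate 1 (0.0523) or knockout replicate 2 (0.055). Of the variable segments Trgv1 (-0.78), Trgv2 (-0.71), Trgv3 (-0.52) and Trgv7 (-0.69) fell, and Trgv4 (-0.63, adjusted p = 0.0997), Trgv5 (-0.21, adjusted p = 0.237) and Trgv6 (0, with a 95% interval of -0.50 to 0.50, and -0.20 to 0.20 with 1 array left out) did not pass. Trgj3 read 3.57, 3.45 and 2.68 in control and 2.20, 3.0 and 3.79 in knockout, with overlap.

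The other receptor loci read differently. None of 36 beta chain rows passed by limma (5 of the 36 had an unadjusted p under 0.05, beside 22.9% of all rows), and their median difference was 0.015. Of 102 alpha and delta chain rows 4 fell (Trac and the joining segments Traj41, Traj49 and Traj52) and Trav9n-4 rose, 4.9% of them, beside 9.75% of all rows. With 1 array left out, Traj41 and Traj49 missed the threshold in 4 of 6 fits each and Trav9n-4 in 5 of 6, and Traj41 passed without control replicate 1 or knockout replicate 1, Traj49 without control replicate 2 or knockout replicate 2, and Trav9n-4 without control replicate 1. On average 87 of these 102 rows read under 3.6, as did 24 of the 36 beta rows and 2 of the 15 gamma rows. A change in the rows under 3.6 can therefore be understated. Trac, Trbc1 and Trbc2 are not among these, as each read above 3.6 in every array. Traj52 read 3.97, 3.99 and 4.23 in control and 3.52, 3.50 and 3.50 in knockout (difference -0.56, adjusted p = 0.00963).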
